A study of Mus musculus with 8 samples.

Results

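The SLC25 family is the set of mitochondrial carriers that move metabolites across the inner mitochondrial membrane, and its members were taken as every row whose gene symbol is Slc25a followed by a number. The rule found 47 genes among the 53465 identifiers of the count table, and 40 of the 47 had enough reads to be tested. The RNA came from bone mesenchymal stem cells (MSCs), the adherent progenitors of bone and fat cells, isolated from hind-limb bones of C57BL/6N mice aged 3 to 5 months. There were 4 libraries of hypoxia-cultured cells (2% O2) and 4 of normoxia-cultured cells (21% O2), numbered 1 to 4 in each group. The culture notes place the flow-cytometry sort for MSCs on day 12 and put the oxygen levels before it. The methods of the study differ on that order. They describe cells of both groups growing out of bone chips at 2% O2 until the sort, then a week at either oxygen level. A figure legend of the study gives an earlier day for the sort. These are unmodified primary cultures, with no transgene or drug separating the groups, and the 2% O2 culture is taken as the reference. The study describes dividing the sorted cells between 2% and 21% O2 and gives 4 biologically independent replicates. The labels do not say that libraries with the same number came from the same sort, so fits with and without that pairing are given. No note says how many mice stand behind a library, so the p-values describe the spread between these cultures.

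Mitochondria are closed to most charged molecules, and each carrier opens a route for a few of them, usually by swapping a substrate on one side for another on the opposite side. The citrate carrier sends citrate to the cytosol, where it is split to acetyl-CoA for lipid synthesis and histone acetylation; the adenine nucleotide and phosphate carriers supply oxidative phosphorylation with ADP and phosphate; other members carry amino acids, cofactors, glutathione and iron. The study asked how oxygen level alters metabolism and gene expression in MSCs, and the comparison of the carriers asks which of these routes differed at the RNA level.

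The libraries held 12898291 to 13433824 reads assigned to genes, except hypoxia replicate 1 with 25132141, and 3 reads amounted to 0.119 to 0.233 CPM (counts per 1e+06 reads, scaled by the TMM method of edgeR). All 12 mesenchymal markers passed the filter on low counts, with summed levels of 4594 to 5528 CPM in hypoxia and 4900 to 5288 CPM in normoxia. By the test given in the next paragraph 3 were higher in normoxia and 1 lower (33.3% passing, near the 34.6% of all genes). Cd44, Nt5e and Itgb1 rose by 0.72, 0.59 and 0.44 on the log2 scale, and Eng fell by 0.27. With the replicate number as a block 5 were higher and 5 lower, where 46.0% of all genes passed. Blood and macrophage markers were present although CD45+ cells had been gated out, and 11 of 13 passed the filter. Their sum was 611 to 1295 CPM in hypoxia and 678 to 1302 CPM in normoxia, and the highest library of each group was replicate 3. The lymphocyte gene Cd3e had 0 reads. Of the 11 tested, 9 were lower and 2 higher in normoxia, with a median log2 difference of -0.30. Lyz2, the largest part of the sum, rose by 0.56, from 261 to 436 CPM in hypoxia to 400 to 691 CPM in normoxia. Laptm5 fell by 0.91. Only these passed the test (18.2%, against 34.6% of all genes). With the block 7 were called lower and 1 higher, where 46.0% of all genes passed. Erythroid markers summed to at most 1.04 CPM with all 4 globin genes at 0, endothelial markers to 3.46 to 5.31 CPM and fat cell markers to 21.4 to 34.1 CPM. Skeletal muscle markers summed to 29.9 to 42.5 CPM in hypoxia and 11.2 to 15.9 CPM in normoxia, carried mostly by the actin gene Acta1, with Myog, Myf5, Pax7 and Ckm at 0. In bulk RNA, fewer cells of a type and less RNA per cell cannot be told apart.

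Between the oxygen levels 9 of the 40 tested carriers passed the test, 7 of them lower and 2 higher in normoxia. The 7 were the citrate carrier Slc25a1, the dicarboxylate carrier Slc25a10, the oxoglutarate carrier Slc25a11, the glutathione carrier Slc25a39, the adenine nucleotide carrier Slc25a4, the branched-chain amino acid carrier Slc25a44 and the low-level carrier Slc25a47. The 2 were Slc25a25, a calcium-regulated carrier of ATP-Mg and phosphate, and Slc25a37, mitoferrin 1, which brings iron into the mitochondrion. Among all 14369 genes tested 34.6% passed, 18.0% higher and 16.5% lower in normoxia, so 9 of 40 is below the share for all genes, while 7 lower in 40 is near the share for that direction. The test was limma-trend on log2 CPM with Benjamini-Hochberg adjustment over all genes tested and a threshold of 0.05, and differences are given as normoxia minus hypoxia on that log2 scale. The median difference was -0.02 over the 40 carriers, with 18 above 0 and 22 below, and 0.00 over all genes.

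Same-numbered libraries of the groups deviated together, and with the replicate number as a block 15 carriers passed, 12 lower and 3 higher, against 46.0% of all genes. All 9 first named were among the 15; the additions were Slc25a3, Slc25a5, Slc25a24, Slc25a38 and Slc25a51, lower in normoxia, and Slc25a16, higher. The 4 values of a group lay wholly on one side of the other group's 4 for 11 of the 40 carriers, 8 lower and 3 higher, against 32.6% of all genes. They were the 9 that passed, with Slc25a51 and Slc25a17 beside them.

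**Figure D1:**
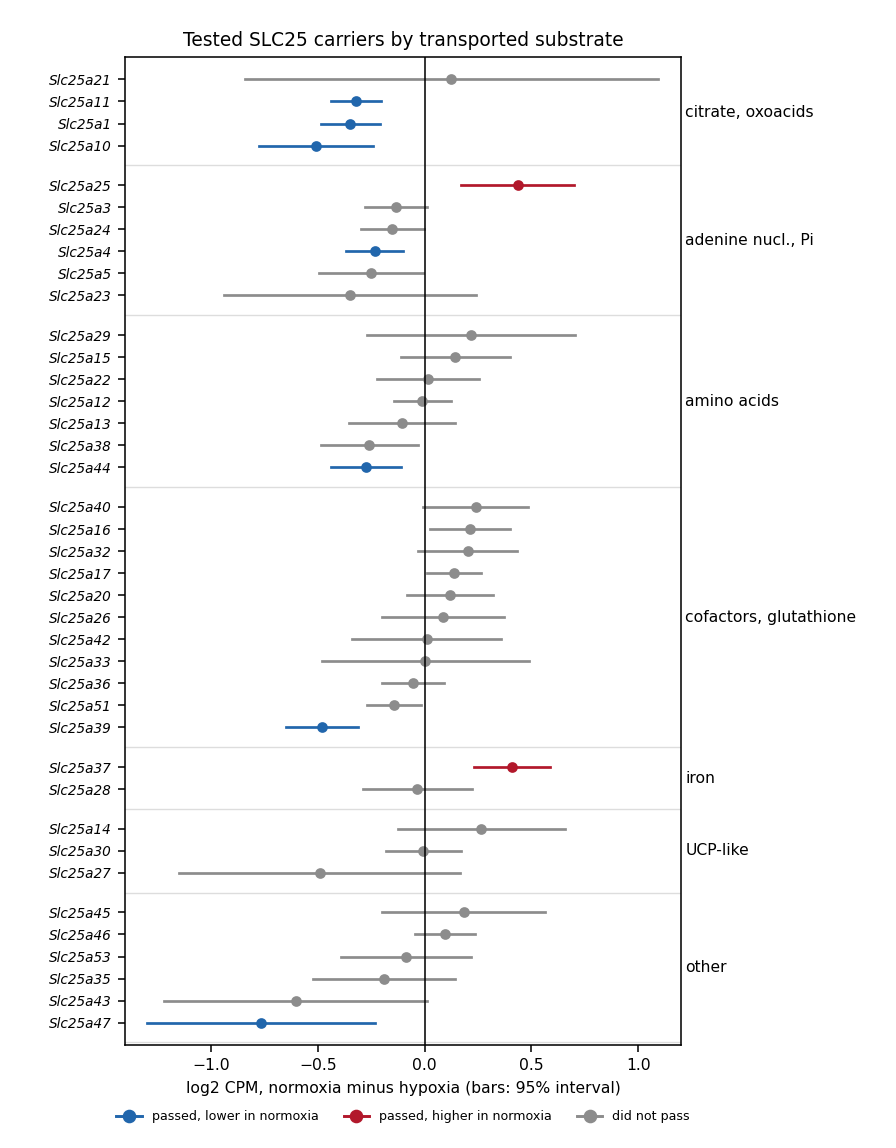
Difference in log2 CPM (normoxia minus hypoxia, horizontal axis) with its 95% interval for 39 of the 40 tested carriers, grouped by what they carry; colours mark the 7 lower and 2 higher in normoxia by limma-trend. The citrate and oxoacid group has 3 of its 4 members to the left of 0, Slc25a25 and Slc25a37 lie to the right, and the longest bars belong to members with few reads such as Slc25a21.

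All carriers together took 0.189 to 0.214% of the reads of a library, and they summed to 1963 to 2170 CPM in hypoxia and 1832 to 1982 CPM in normoxia. The groups overlapped at this sum through hypoxia replicate 2, the lowest of its group, and normoxia replicate 1, the highest of its own. Divided by the length of all annotated exons, the mean level over the 8 libraries was highest for Slc25a4 at 196 CPM per kb, then Slc25a5 at 123 and Slc25a3 at 64.2 CPM per kb, the carriers that serve ATP synthesis. Slc25a39 followed at 53.8 CPM per kb, and Slc25a1 and Slc25a11 stood next to each other at 39.0 and 38.2 CPM per kb. On this scale 9 members were at 10 or above, 23 between 1 and 10 and 8 below 1. Exon lengths are unions over all annotated transcripts (5550 bases for Slc25a3), and which of these exons the cells used was not measured.

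**Figure D2:**
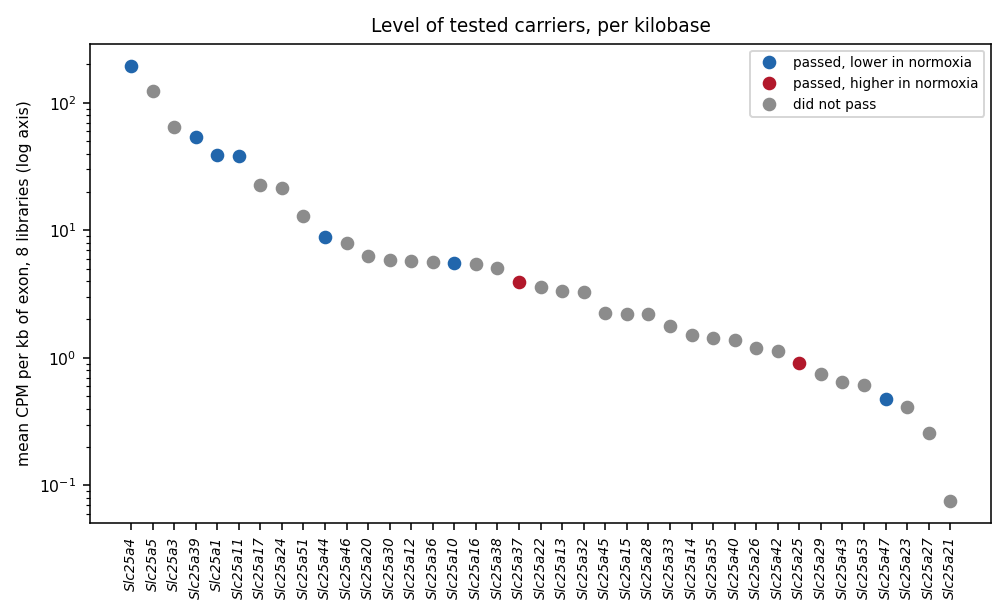
Mean level of 39 tested carriers over the 8 libraries in CPM per kb of exon (vertical log axis), in falling order, with the colour of its test result. Slc25a4 leads at 196 CPM per kb, and 5 of the 10 highest members were lower in normoxia, against 16.5% of all genes, a share not matched for level. The 2 that were higher sit further down, Slc25a37 at 3.93 and Slc25a25 at 0.910.

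Of the 4 carriers of citrate, dicarboxylates and oxoacids, 3 fell in normoxia, against 16.5% lower among all genes. With the GC and length correction described further on 1 of the 4 passed as lower, against 2065 of 14353 genes. With the replicate block added 2 of the 4 did, against 3093 of 14353 genes. Slc25a21, the oxodicarboxylate carrier, had 44 reads in all and a difference of 0.13 with an interval from -0.84 to 1.09. Slc25a1 (ENSMUSG00000003528, minus strand, chromosome 16, 17925223 to 17928219 on GRCm38) was at 88.5, 91.4, 104 and 94.8 CPM in hypoxia replicates 1 to 4 and at 72.1, 78.1, 71.9 and 74.8 CPM in normoxia. The lowest hypoxia library was above the highest normoxia library, and normoxia was lower in all 4 numbered pairs. The difference was -0.35 ± 0.063 (SE, n = 4 and 4; limma-trend adjusted p = 0.0015), a level 21.4% lower. With a correction for GC content and transcript length it was -0.12 and did not pass (adjusted p = 0.11, and 0.063 with the replicate block as well). The study itself reported comparable Slc25a1 RNA at both oxygen levels by qRT-PCR against β-actin, and comparable citrate carrier protein by immunostaining. Those are other measures than CPM, and why they differ from the lower CPM here was not tested.

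Slc25a10 (ENSMUSG00000025792, plus strand, chromosome 11, 120491840 to 120499187), which exchanges malate or succinate for phosphate, was at 25, 20.3, 24.5 and 19.8 CPM in hypoxia and 16.8, 12.5, 15.7 and 17.9 CPM in normoxia. The groups did not overlap, and normoxia was lower by 0.51 ± 0.12 on the log2 scale (SE; limma-trend adjusted p = 0.0071). With the GC and length correction the difference was -0.28 and missed the threshold (adjusted p = 0.13), and with the block added it passed (adjusted p = 0.013).

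Slc25a11 (ENSMUSG00000014606, minus strand, chromosome 11, 70644196 to 70647479), the oxoglutarate-malate exchanger of the malate-aspartate shuttle, was at 89.6, 85.0, 92.7 and 92.5 CPM in hypoxia and 71.6, 71.4, 71.3 and 73.3 CPM in normoxia. The normoxia libraries lay close together and below every hypoxia library. The difference was -0.32 ± 0.054 (limma-trend adjusted p = 0.00090) and -0.18 with the GC and length correction (adjusted p = 0.014), so it passed both ways.

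Because oxygen-responsive transcription factors of the HIF family bind a short core, ACGTG or GCGTG, the 250 bases before the RefSeq start were read for the carriers from the RefSeq promoter table (GRCm38.p6) and searched on both strands, with overlapping matches counted as a single match. The windows of the 3 carriers that were lower in normoxia and held the core are shown, 5′ to 3′ along the gene's own strand, with the matches in capitals; CACGC is the reverse complement of GCGTG, and CACGTG is an E-box that holds ACGTG on both strands. They lie at chr16:17928220-17928469, chr11:70647040-70647234 and chr11:102407518-102407767, all on the minus strand. The Slc25a1 window lies upstream of the gene in GENCODE M21. The Slc25a11 and Slc25a39 windows lie in the first intron of a longer GENCODE transcript of the same gene apart from their last 19 and 27 bases, which are annotated exon, and the first 55 bases of the Slc25a11 window, left off here, are exon of Rnf167 on the opposite strand.
Slc25a1: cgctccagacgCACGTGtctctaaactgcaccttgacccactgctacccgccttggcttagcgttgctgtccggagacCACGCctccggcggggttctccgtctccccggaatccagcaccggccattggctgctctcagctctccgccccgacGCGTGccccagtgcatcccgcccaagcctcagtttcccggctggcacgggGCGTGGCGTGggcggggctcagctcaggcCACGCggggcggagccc
Slc25a11: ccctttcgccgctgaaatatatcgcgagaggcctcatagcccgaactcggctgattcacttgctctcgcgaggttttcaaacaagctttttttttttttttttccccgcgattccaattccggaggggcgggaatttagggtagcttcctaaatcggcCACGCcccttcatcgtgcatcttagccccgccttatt
Slc25a39: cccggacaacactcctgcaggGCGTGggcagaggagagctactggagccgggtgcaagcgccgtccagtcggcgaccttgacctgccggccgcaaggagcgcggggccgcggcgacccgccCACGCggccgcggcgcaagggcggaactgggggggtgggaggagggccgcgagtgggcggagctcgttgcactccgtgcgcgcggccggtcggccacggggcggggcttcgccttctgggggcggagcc

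The Slc25a1 window held 6 separate matches, starting 239, 172, 96, 46, 41 and 17 bases before the start, and 0.152% of the 32851 windows in the table held 6 or more. It had the most of the 46 carrier windows, and that share is not matched for G and C content. Slc25a39 held 2 and Slc25a11 held 1. Promoter windows were found for 36 of the 47 carriers and for 7 of the 9 that passed; Slc25a37 and Slc25a44 had none. The core was present in 21 of the 36 carriers, in 3 of the 6 lower in normoxia, in none of the 3 windows of Slc25a25 and in 17 of the 24 tested carriers that did not pass, while 41.5% of all 27025 genes had it. A match is only these letters in the window, not a bound site.

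**Figure D3:**
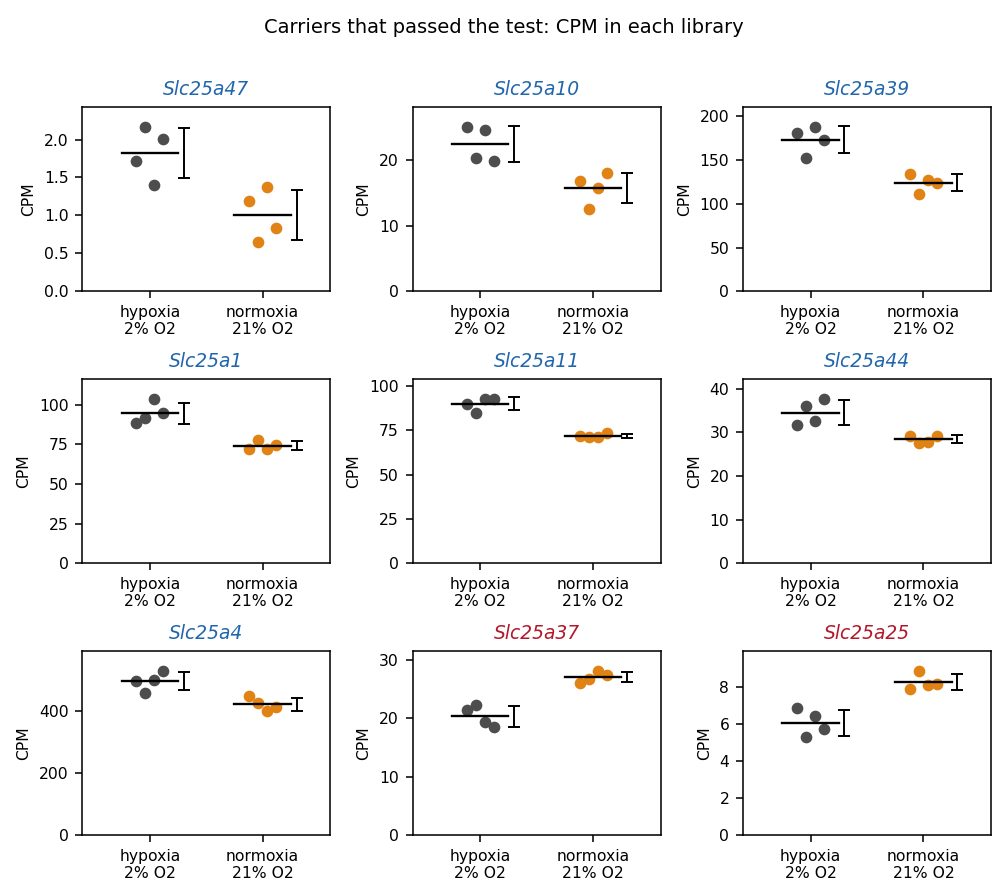
CPM in each of the 4 hypoxia (2% O2) and 4 normoxia (21% O2) libraries for the 9 carriers that passed the test; horizontal lines are group means, vertical bars the SD, and every axis starts at 0. In all 9 panels the points of the groups do not overlap, and the closest approach is in Slc25a47, at 1.41 CPM in hypoxia replicate 3 against 1.37 CPM in normoxia replicate 3.

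The adenine nucleotide and phosphate carriers had 6 tested members, of which Slc25a4 fell, Slc25a25 rose and 4 did not pass. That is 33.3% passing, near the 34.6% of all genes. With the replicate block 4 were lower and 1 higher. In that fit 46.0% of all 14369 genes passed, 3268 lower and 3342 higher. Slc25a4 (ENSMUSG00000031633, minus strand, chromosome 8, 46206797 to 46211284), the ADP/ATP exchanger ANT1 best known from heart and muscle, was at 498, 459, 502 and 530.5 CPM in hypoxia and 448, 428, 399.5 and 415 CPM in normoxia. The groups did not overlap and the difference was -0.23 ± 0.062 (limma-trend adjusted p = 0.012). It was -0.16 with the GC and length correction (adjusted p = 0.051, and 0.0028 with the block). The sum of the muscle markers above moved the same way, and it rested mostly on Acta1. Of the 4 tested, Acta1 and Actn3 fell, while Tnnt3 (-0.23) and Mylpf (0.10) did not pass. The part of the muscle markers in the Slc25a4 difference was not tested.

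Slc25a5 (ENSMUSG00000016319), the ANT2 form of growing cells, was at 264, 172, 226 and 223 CPM in hypoxia and 212, 171, 179.6 and 177 CPM in normoxia. The groups overlapped through hypoxia replicate 2, although normoxia was lower in all 4 pairs. The difference of -0.25 ± 0.11 did not pass (limma-trend adjusted p = 0.10), while the blocked fit called it lower (adjusted p = 0.00072). A pseudogene, Slc25a5-ps, is annotated separately and had 0 reads.

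Slc25a3 (ENSMUSG00000061904), which brings phosphate in with protons, was at 386, 336, 389 and 379.9 CPM in hypoxia and 374, 325, 328 and 331 CPM in normoxia. Hypoxia replicate 2 lay below normoxia replicate 1, so the groups overlapped, and the difference was -0.13 ± 0.067 (limma-trend adjusted p = 0.14, blocked 0.032). After the GC and length correction it was -0.32 and passed (adjusted p = 0.0050).

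The remaining 3 tested members are calcium-regulated ATP-Mg/phosphate carriers. Slc25a25 (ENSMUSG00000026819, minus strand, chromosome 2, 32414487 to 32451445) was at 6.86, 5.3, 6.4 and 5.7 CPM in hypoxia and 7.87, 8.86, 8.08 and 8.14 CPM in normoxia, with every normoxia library above every hypoxia library. It rose by 0.44 ± 0.12 (limma-trend adjusted p = 0.015), which is 35.2%, and without normoxia replicate 2 it missed the threshold (0.39, adjusted p = 0.053). Its relative Slc25a24 was at 77.4, 76.4, 79.0 and 74.5 CPM in hypoxia and 78.2, 64.1, 68.3 and 66.8 CPM in normoxia.

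Normoxia replicate 1 alone kept the Slc25a24 groups from separating; the difference was -0.15 ± 0.067 (limma-trend adjusted p = 0.10, blocked 0.041) and -0.35 with the GC and length correction (adjusted p = 0.0023). Slc25a23 was at 1.5, 2.89, 2.26 and 3.31 CPM in hypoxia and 1.11, 2.16, 2.38 and 1.96 CPM in normoxia, overlapping groups of 15 to 43 reads a library, with a difference of -0.35 and an interval from -0.94 to 0.24.

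Among the 7 tested amino acid carriers only Slc25a44 passed (14.3%, against 34.6% of all genes). Slc25a44 (ENSMUSG00000050144, minus strand, chromosome 3, 88410498 to 88425139), which carries branched-chain amino acids, was at 31.7, 36.0, 32.7 and 37.7 CPM in hypoxia and 29.2, 27.7, 27.8 and 29.2 CPM in normoxia. The groups did not overlap, and the difference was -0.27 ± 0.075 (limma-trend adjusted p = 0.014; 0.053 with the GC and length correction). Slc25a38, the glycine carrier that feeds heme synthesis, differed by -0.26 ± 0.10 and passed only with the block (blocked limma-trend adjusted p = 0.030, against 0.073 unblocked) among the fits on all 8 libraries.

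The aspartate-glutamate carriers of the malate-aspartate shuttle did not pass. Slc25a12 was at 42.6, 41.0, 42.1 and 42.5 CPM in hypoxia and 43.5, 39.2, 41.6 and 42.7 CPM in normoxia, and its interval, -0.14 to 0.12, is among the narrowest here. Slc25a13 was at 14.4, 12.0, 14.8 and 11.9 CPM in hypoxia and 13, 11.9, 10.7 and 13.5 CPM in normoxia, with overlapping groups and an interval from -0.35 to 0.14. The oxoglutarate carrier Slc25a11 thus passed where both of its partners in that shuttle missed the threshold, and the difference between them was not tested. With the GC and length correction the differences were -0.18 for Slc25a11, -0.20 for Slc25a13 and -0.11 for Slc25a12. The corrected estimates of Slc25a11 and Slc25a13 were thus of similar size. Slc25a13 and Slc25a12 did not pass with it (corrected limma-trend adjusted p = 0.23 and 0.21).

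The other tested amino acid carriers gave differences of 0.02 for the glutamate carrier Slc25a22, 0.14 for the ornithine carrier Slc25a15 and 0.22 for Slc25a29, which carries basic amino acids. Their limma-trend adjusted p-values were 0.92, 0.38 and 0.49.

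Of the 12 carriers of cofactors, carnitine, glutathione and pyrimidine nucleotides 1 fell and 11 did not pass. That is 8.3% passing, against 34.6% of all genes. Slc25a39 (ENSMUSG00000018677, minus strand, chromosome 11, 102402985 to 102407946), which imports glutathione, was at 181, 152, 188 and 172 CPM in hypoxia and 134, 111, 127 and 124 CPM in normoxia. The groups did not overlap, and the level was 28.4% lower in normoxia: -0.48 ± 0.077 (limma-trend adjusted p = 0.00071). It passed with the GC and length correction too, at -0.24 (adjusted p = 0.031).

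Slc25a40, the close relative of Slc25a39, was at 10.2, 12.7, 9.84 and 9.86 CPM in hypoxia and 12.9, 13.5, 11.3 and 12.4 CPM in normoxia. Hypoxia replicate 2 was the library that overlapped the normoxia range; the difference was 0.24 ± 0.11 (limma-trend adjusted p = 0.12) and 0.00 with the GC and length correction. Transcripts of Slc25a39 are 59.7% G and C and those of Slc25a40 are 39.4%, the lowest of the tested carriers.

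The NAD carrier Slc25a51 was at 72.2, 77.7, 76.3 and 72.0 CPM in hypoxia and at 64.8, 65.3, 70.1 and 69.6 CPM in normoxia, groups that did not overlap. The difference of -0.14 ± 0.058 missed the threshold (limma-trend adjusted p = 0.075) and passed with the block (0.046) or the GC and length correction (0.0094). Slc25a17, a carrier of coenzyme A and related cofactors that sits in peroxisomes rather than mitochondria, was at 57.3 to 64.7 CPM in hypoxia and 67.1 to 68.2 CPM in normoxia and did not pass (0.14, adjusted p = 0.084).

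Slc25a16, linked to coenzyme A transport, differed by 0.21 ± 0.086 (limma-trend adjusted p = 0.075, blocked 0.025), and by 0.03 with the GC and length correction. The folate and FAD carrier Slc25a32 and the carnitine-acylcarnitine carrier Slc25a20 differed by 0.20 and 0.12 (adjusted p = 0.16 and 0.34). The S-adenosylmethionine carrier Slc25a26 and the coenzyme A carrier Slc25a42 differed by 0.09 and 0.01.

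The pyrimidine nucleotide carriers did not pass. Slc25a33 was at 3.68, 2.01, 3.83 and 4.16 CPM in hypoxia and 4.23, 3.10, 3.03 and 3.01 CPM in normoxia, with an interval from -0.48 to 0.49. Slc25a36 was at 51.6, 57.4, 54.6 and 57.5 CPM in hypoxia and 50.3, 50.9, 57.6 and 54.3 CPM in normoxia, a difference of -0.05 ± 0.067 that became -0.28 with the GC and length correction (limma-trend adjusted p = 0.0080).

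The iron importers, the mitoferrins, had 1 member that rose and 1 that did not pass, where 34.6% of all genes passed. Slc25a37 (ENSMUSG00000034248, minus strand, chromosome 14, 69241848 to 69285112), the form known best from red cell precursors, was at 21.4, 22.3, 19.3 and 18.4 CPM in hypoxia and 26.0, 26.7, 28.1 and 27.4 CPM in normoxia. Every normoxia library was above every hypoxia library, and the rise was 0.41 ± 0.082 (limma-trend adjusted p = 0.0025), or 32.8%. It passed in all 19 alternative fits, and the globin genes were at 0 in all libraries. Slc25a28, mitoferrin 2, was at 8.23, 7.46, 9.13 and 8.55 CPM in hypoxia and 9.13, 7.13, 8.01 and 8.37 CPM in normoxia, with an interval from -0.29 to 0.22.

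The 3 relatives of the uncoupling proteins did not pass: Slc25a14 differed by 0.27, Slc25a27 by -0.49 and Slc25a30 by -0.01 (limma-trend adjusted p = 0.28, 0.24 and 0.97). Of the 6 tested members with another or an unsettled substrate, Slc25a47 passed (16.7%, against 34.6% of all genes). Slc25a47 (ENSMUSG00000048856, plus strand, chromosome 12, 108836046 to 108856815) was at 1.71, 2.17, 1.41 and 2.00 CPM in hypoxia and 1.19, 0.648, 1.37 and 0.829 CPM in normoxia, from 9 to 41 reads a library. The groups did not overlap, with 1.41 against 1.37 CPM where they came closest, and normoxia was lower by 0.77 ± 0.25 (limma-trend adjusted p = 0.030). The call was lost without hypoxia replicate 2 or 4 or normoxia replicate 2 or 4 (adjusted p = 0.070 to 0.080), with the GC and length correction (0.10) and without the filter on low counts (0.086).

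Slc25a43 showed a difference of similar size that did not pass, -0.60 with an interval from -1.22 to 0.01. Slc25a35, Slc25a53, Slc25a45 and Slc25a46, the last a protein of the outer membrane that shapes mitochondria, differed by -0.19, -0.09, 0.18 and 0.10.

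Across the 31 tested carriers that did not pass, differences ran from -0.60 to 0.27, and for 23 of them the whole 95% interval lay within 0.5 of 0 on the log2 scale. For the other 8, which had at most 6.24 CPM on average, the interval reached past that size. The 7 untested members were at or near the detection limit: Slc25a41 had 0 reads, Slc25a31 (ANT4) 1, Slc25a54 3, Slc25a2 4, Slc25a34 6, Slc25a18 7 and Slc25a48 10 reads over the 8 libraries, with no more than 3 in any of them. At these depths a level below 0.119 to 0.233 CPM in a library cannot be told from 0, by counting error alone.

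The balance between carriers of the same substrate was compared as the log2 ratio of their reads within each library, which does not depend on library size. Slc25a25 against Slc25a24 was 0.60 higher in normoxia, from a hypoxia mean of -3.66 ± 0.15 to a normoxia mean of -3.07 ± 0.19 (SD over 4 libraries), and per unit of exon length its share of the pair went from 2.94 to 3.72% in hypoxia to 4.21 to 5.69% in normoxia. Slc25a39 against Slc25a40 differed by -0.72, from 4.02 ± 0.30 to 3.30 ± 0.20, while Slc25a39 was 96.1% or more of the pair in every library. With the GC and length correction the members of this pair differed by -0.24 and 0.00, against 0.39 and -0.35 for Slc25a25 and Slc25a24. In both pairs the uncorrected groups did not overlap, which gives p = 0.029 in a two-sided exact permutation test, the smallest the 70 assignments allow, and 0.10 after Benjamini-Hochberg adjustment over the 7 pairs. With the replicate number as a block the exact sign-flip test gave 0.125, the smallest it allows with 4 pairs.

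Slc25a37 against Slc25a28 differed by 0.45 with overlapping groups (exact permutation p = 0.057, adjusted 0.13; 0.029 without hypoxia replicate 2). The other 4 ratios did not separate: 0.02 for Slc25a4 against Slc25a5, 0.10 for Slc25a12 against Slc25a13, -0.22 for Slc25a23 against Slc25a24 and 0.06 for Slc25a33 against Slc25a36 (exact permutation p = 0.94, 0.40, 0.57 and 0.91). Slc25a4 made up 56.9 to 65.1% of its pair with Slc25a5 per unit of exon length in hypoxia and 59.7 to 63.7% in normoxia.

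**Figure D4:**
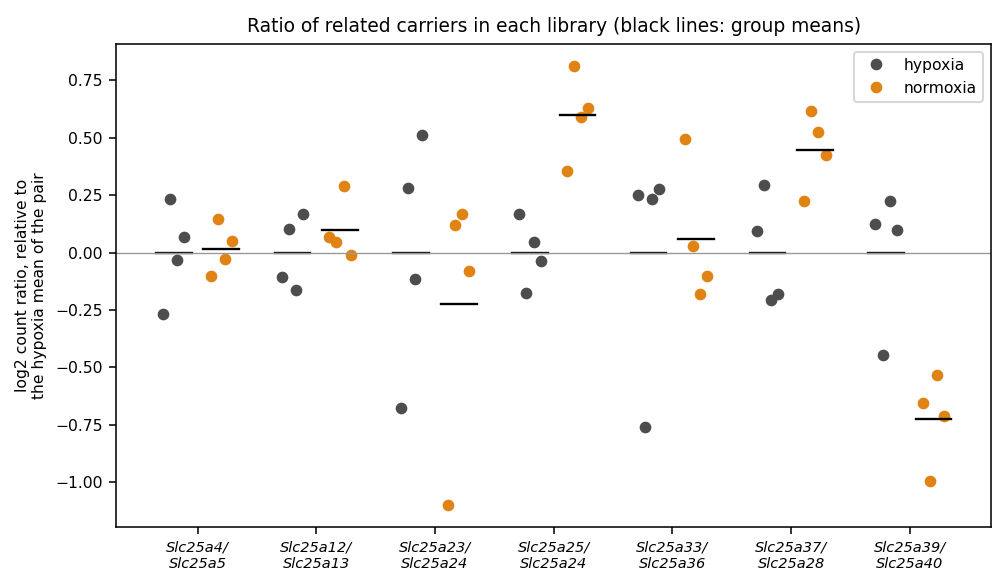
Log2 ratio of the reads of 7 pairs of related carriers in each library, shown relative to the hypoxia mean of the pair (vertical axis); points are libraries and black lines group means. Slc25a25 against Slc25a24 is higher and Slc25a39 against Slc25a40 lower in all 4 normoxia libraries, and the other 5 pairs overlap.

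Across the 40 carriers the difference moved with the G and C content of the transcript, with Spearman's rho = -0.42, as it did across all 14353 genes with a sequence (-0.39). These are correlations across genes from the same 8 libraries, given as a description. The carriers lower in normoxia had a median G and C content of 57.1%, the 2 higher 48.6% and those that did not pass 48.2%. In single libraries the slope of log2 CPM on G and C content was 0.074 to 0.18 per 10 percentage points in hypoxia and -0.14 to -0.086 in normoxia, so the slopes of the groups did not overlap.

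With a spline correction of each library for GC content and transcript length, rho over the carriers was 0.12 and 8 passed, 6 lower and 2 higher, against 29.5% of all genes; the median over the carriers was then -0.12. Of the first 9, Slc25a11, Slc25a39, Slc25a25 and Slc25a37 kept their call. Slc25a3, Slc25a24, Slc25a36 and Slc25a51 gained one, lower in normoxia. With correction and block together 12 passed, 10 lower and 2 higher, against 43.2% of all genes, and 7 of the 9 were among them, all but Slc25a1 and Slc25a47. GC dependence and oxygen level cannot be told apart by these libraries, since they share the same split.

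**Figure D5:**
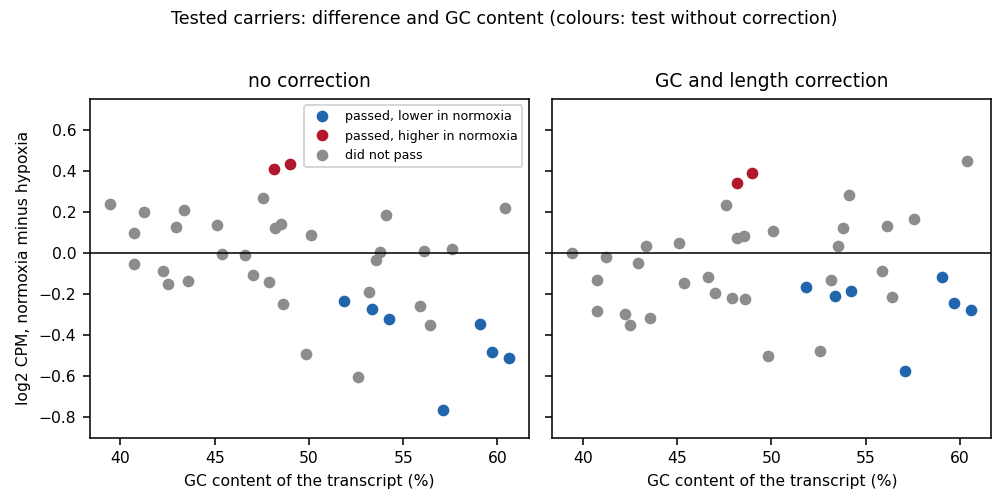
Difference in log2 CPM (normoxia minus hypoxia, vertical axis) of 39 tested carriers against the G and C content of their longest transcript in percent, without (left) and with (right) the GC and length correction; colours give the test without correction. On the left the blue points lie at 52 to 61% G and C, with Slc25a1 at -0.35, and on the right they move towards 0, with Slc25a1 at -0.12.

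Some carriers share exon sequence in GENCODE M21 with genes on the opposite strand, and whether reads were counted by strand is not given in the sources used here. Slc25a25 shares 379 exon bases with Naif1 between 32451067 and 32451445 on chromosome 2, and Naif1 had 980 reads against 835. Slc25a11 shares 189 with Rnf167 at 70647291 to 70647479 on chromosome 11, with 2365 reads against 9508. Among others, Slc25a26 shares 144 with Lrig1, Slc25a21 shares 189 with Pax9 and Slc25a46 shares 383 with B930094E09Rik. Slc25a35 shares 1151 with Rangrf, which had 0 reads. Of the carriers that passed, Slc25a37 shares 381 with Gm31748 and Slc25a10 shares 228 with Gm11788, which had 3 and 2 reads. The reads of all these carriers are less certain. By their GENCODE starts Slc25a47 and Slc25a29 lie head to head with 162 bases between them, and they differed by -0.77 and 0.22. The RefSeq start of Slc25a47, used for its promoter window, lies 15083 bases inside the GENCODE gene. Which start the cells used was not measured.

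Other mitochondrial transporters, outside the family, had 11 of 21 tested genes past the threshold, 7 lower and 4 higher in normoxia (52.4%, against 34.6% of all genes). The largest were Micu3, a regulator of the calcium uniporter, which rose by 0.97, the sideroflexin Sfxn4, which fell by 0.76, and the ABC transporter Abcb8, which fell by 0.38 (limma-trend adjusted p = 0.0012, 0.030 and 0.0034). The list also holds both subunits of the pyruvate carrier, and it had the same count in the blocked fit, where 46.0% of all genes passed.

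The machinery that inserts carriers into the inner membrane had 2 of 15 tested genes past the threshold, against 34.6% of all genes: the import receptor gene Tomm70a, which rose by 0.51, and the chaperone gene Timm13, which fell by 0.26 (limma-trend adjusted p = 0.00077 and 0.015). With the GC and length correction 4 of 15 passed, against 29.5% of all genes. Tomm70a was then higher by 0.29, the receptor genes Tomm20 and Tomm22 and the pore component gene Tomm7 were lower, and Timm13 was at -0.013 and no longer passed (corrected limma-trend adjusted p = 0.89). Of 18 tested enzymes that work with the carriers in metabolite shuttles, 6 passed (33.3%), near the 34.6% of all genes. Among all genes 18.0% passed as higher in normoxia and 16.5% as lower, while all 6 enzymes were higher. They were led by the malic enzyme gene Me1 (0.31), the carnitine palmitoyltransferase gene Cpt1a (0.27) and the ornithine aminotransferase gene Oat (0.22), with limma-trend adjusted p = 0.0025, 0.0033 and 0.0082. The blocked fit, with the replicate number as a term, called 12, 7 higher and 5 lower, where 46.0% of all genes passed.

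Family members under other symbols were Ucp1 to Ucp3, Mtch1 and Mtch2, of which 3 were tested and 1 passed, where 34.6% of all genes did. Mtch1, a carrier relative of the outer membrane, was at 242 to 286 CPM in hypoxia and 192 to 204 CPM in normoxia and fell by 0.41 (limma-trend adjusted p = 0.00038). Ucp2 was at 32.8, 49.8, 77.7 and 61.6 CPM in hypoxia and 30.8, 33.5, 56.4 and 42.7 CPM in normoxia, highest in replicate 3 of both groups like the macrophage markers, whose part in it was not tested. Its difference of -0.41 passed only with the replicate block (blocked limma-trend adjusted p = 6.4e-05, against 0.20 unblocked). Mtch2 differed by -0.09, and by -0.29 with the GC and length correction, which passed (corrected limma-trend adjusted p = 0.033). Ucp1, the uncoupling protein of brown fat, had 0 reads and Ucp3 had 4.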

How the data were processed

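The table holds raw read counts per gene, whole numbers deposited by the authors for 8 libraries with all 8 sample columns used and 0 left out. The authors prepared NEBNext Ultra II libraries, mapped single-end reads to mm10 with zUMIs and STAR and counted them with featureCounts on the Ensembl GRCm38 annotation; settings for strand and multiply mapped reads are not given in the sources used here. Symbols and positions came from GENCODE M21 (53360 identifiers matched; the unmatched held 0.00364% of counts). Depth and the 3-count floor stand in the report; both cover counting error only.

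Genes were filtered with filterByExpr (minimum count 5) and tested by limma-trend at an adjusted p of 0.05, as in the study's methods; TMM scaling, the prior count of 3 on the log2 CPM scale and a fit without a block were chosen here. The work was done in R 4.3.3 with edgeR 4.0.16 and limma 3.58.1; p-values were adjusted by Benjamini-Hochberg over 14369 genes. Deviations from the group means correlated between same-numbered libraries (r = 0.47, 0.28, 0.25 and 0.17 over genes). Correlations between differently numbered libraries were not computed, so pairing is not established. Blocked values are given where they change a call or move a count by over 1.5 times. The lowest chi-square per degree of freedom between replicates was 3.66, so no library was counted as a repeat. Alternatives were a GC and length correction (splines with 5 degrees of freedom), edgeR quasi-likelihood, DESeq2 1.42.0, limma-voom, other scalings, filters and prior count, and leaving out each library. Ratios used 0.5 added to each count.

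The carriers, lists and rules were chosen with earlier results of these data known. Values in every library were given for carriers past the threshold with a log2 difference of at least 0.5, Slc25a1, both genes of each tested pair and the 3 highest per kilobase; the remaining carriers that passed, and Slc25a51, Slc25a17, Ucp2, Mtch2, Tomm20, Tomm22 and Tomm7, were added after their values were seen. At most 3 genes of each other list are named by size of difference. Scripts were tested on simulated data. Of the tested carriers 1 is not reported here by name and is left out of the figures, though it is counted in all totals.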

Additional observations from a re-analysis of the deposited data

Results flagged for a closer look

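In 84 groups of 4 libraries searched, 8 held a library standing apart: the gap between it and the closest other library took more than 0.829 of the whole spread. Chance flags about 1 in 20 such groups, which is 4.2 of 84. The total count of hypoxia replicate 1 stood apart at 25132141 reads (gap ratio 0.976). The summed carrier level was low in hypoxia replicate 2, at 1963 CPM against 2159 to 2170 CPM in the other hypoxia libraries (0.944), and high in normoxia replicate 1, at 1982 CPM against 1832 to 1856 CPM (0.839). The same libraries stood apart for Slc25a3, low in hypoxia replicate 2 at 8.39 log2 CPM (0.836) and high in normoxia replicate 1 at 8.55 log2 CPM (0.880). Slc25a40 was high in hypoxia replicate 2 at 3.69 log2 CPM (0.874), and Slc25a33 was high in normoxia replicate 1 at 2.15 log2 CPM (0.921). Slc25a11 was high in normoxia replicate 4 at 6.20 log2 CPM (0.859), in a group that spans only 6.16 to 6.20 log2 CPM.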

How the results depend on the processing

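The count of 9 carriers was 9 with edgeR, DESeq2, limma-voom, RLE scaling, no low-count filter, a minimum count of 10 and a prior count of 1, 10 with upper quartile scaling, 8 with the GC and length correction, 12 with that correction and the replicate block, and 15 with the replicate block alone; leaving out a library gave 7 (without normoxia replicate 2) to 12 (without normoxia replicate 1). Without the low-count filter Slc25a47 lost its call and Slc25a34, with 6 reads in hypoxia and 0 in normoxia, had one (adjusted p = 0.017). No called carrier changed sign in any of these. Slc25a11, Slc25a37 and Slc25a39 passed in all 19 alternatives. Leaving out normoxia replicate 1 added Slc25a3, Slc25a5 and Slc25a24, leaving out hypoxia replicate 2 added Slc25a3, Slc25a5 and Slc25a40 and lost Slc25a47, hypoxia replicate 1 added Slc25a16 and Slc25a27, normoxia replicate 3 added Slc25a38, hypoxia replicate 4 and normoxia replicate 4 each lost Slc25a47, and normoxia replicate 2 lost Slc25a25 and Slc25a47. Among the other lists the import machinery went from 2 to 4 genes with the GC and length correction, alone or with the replicate block, the shuttle enzymes from 6 to 12 with the replicate block, and the carriers under other symbols from 1 to 2 with the block or the correction and 3 with both. With the replicate block the ratio differences of Slc25a25 against Slc25a24 (0.60) and Slc25a39 against Slc25a40 (-0.72) had p = 0.125 in the exact sign-flip test; without single libraries they ran from 0.53 to 0.68 and from -0.87 to -0.63, and Slc25a37 against Slc25a28 from 0.38 to 0.54. The remaining ratios without single libraries ran from -0.07 to 0.09 (Slc25a4 against Slc25a5), 0.03 to 0.15 (Slc25a12 against Slc25a13), -0.45 to 0.07 (Slc25a23 against Slc25a24) and -0.19 to 0.15 (Slc25a33 against Slc25a36). The cause of these shifts was not tested. Depth limits the 8 carriers with few reads and wide intervals.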
